A study of Triticum aestivum with 10 samples.

Results

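Sucrose synthase was followed through the first days of wheat seed development with the 3 probe sets that the array carries for it among its wheat control transcripts, AFFX-Ta_Sucsyn_3_at, AFFX-Ta_Sucsyn_M_at and AFFX-Ta_Sucsyn_5_at. By their names they read the 3′ end, the middle and the 5′ end of 1 transcript. They were chosen by name, as all probe sets whose names begin with AFFX-Ta_Sucsyn, and make up 3 of the 61290 probe sets of the array. No level or fold change was used as a limit, but the log2 values on these 10 arrays were known when the transcript was picked, so its levels and differences are given as a description, and the fitted intervals and p-values describe their error and serve as no independent support. Values are on the log2 scale as deposited, made with RMA (robust multi-array average), a method that corrects background, gives all arrays a common distribution and combines a probe set's probes into 1 value. The 3 probe sets share a transcript and are not replicates of each other. The files do not tie them to a gene of the reference, and wheat carries related copies of sucrose synthase in its A, B and D genomes, so which copies they read is not known here.

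Whole developing seeds of the winter wheat cultivar Redland were compared in 5 groups of 2 arrays: controls, whose plants were kept watered, sampled 24, 48 and 72 hours after fertilization (HAF), and drought seeds from plants no longer watered, sampled at 48 and 72 HAF. All plants were vernalized as seedlings and raised in a growth chamber, and fertilization was timed by marking single florets. The submitters' texts place the onset of drought at 24 HAF in some sentences and at 48 HAF in another, so how long the 48 HAF drought seeds had been without water is not settled. The 2 arrays of a group are labelled biological replicates with no plant or pot named, so the error given below is the spread between these samples. In RNA from whole seeds, more cells of a type and more transcript per cell cannot be told apart.

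Sucrose synthase splits sucrose, with UDP, into UDP-glucose and fructose, in a reaction that can run both ways. In cereal grains it works beside invertase, which cleaves sucrose into glucose and fructose, and its UDP-glucose feeds starch synthesis in the endosperm and the making of cellulose and callose in cell walls. Sucrose synthase activity is widely used as a measure of the sink strength of the growing grain. Many RNA-labelling methods, the one-cycle method used here among them, prime at the 3′ end of the message, and for this reason arrays carry 5′, middle and 3′ probe sets of a few transcripts to watch the state of the RNA.

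A pair of arrays stood apart from the rest. Control 24 HAF replicate 2 correlated with the other 9 arrays at r of 0.811 to 0.898 over all probe sets, and the mean of its 9 probe sets for BioB, a bacterial transcript added at hybridisation, was 11.8 (log2), where the remaining 9 arrays ranged from 4.18 to 7.24. Drought 72 HAF replicate 2 had an r of at most 0.959 to any other array. Its BioB mean (7.24) was the second highest, but control 48 HAF replicate 2 was close to it (6.93). For several other arrays the best match lay in another group. Control 24 and 48 HAF replicates 1 shared their highest r (0.9963), as did control 72 HAF replicate 2 and drought 72 HAF replicate 1 (0.9961). So did control 48 HAF replicate 2 and drought 48 HAF replicate 1 (0.9935). Control 72 HAF replicate 1 reached at most 0.982. Of the 13 genes matched to endosperm storage and starch names, 5 lay above the array's median on all 10 arrays and 2 below it on all 10. All 3 genes matched to green tissue names lay above the median on all 10, each read by its brightest probe set. They were a gene listed as rbcl, a Rubisco name, and placed on chromosome 2D, and OEE1 and OEE2. The last are proteins of the oxygen-evolving complex of photosystem II. The brightest probe set of rbcl averaged 13.96 and its dimmest 1.70. The profilin gene, which is abundant in pollen and also expressed in other tissues, lay above the median on all 10 as well.

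All 3 probe sets were higher at 72 HAF than at 48 HAF, in watered and in droughted seeds. The 3′ probe set read 10.6 and 10.7 in control seeds and 10.7 and 10.6 in drought seeds at 48 HAF, and 11.2 and 11.2 in control seeds and 11.1 and 11.6 in drought seeds at 72 HAF, in the order of replicates 1 and 2. The middle probe set read 8.07 and 7.87 in control and 7.71 and 7.97 in drought seeds at 48 HAF. At 72 HAF it read 9.43 and 9.43 in control and 9.54 and 10.7 in drought seeds. For every one of the 3 probe sets, the lowest of the 4 arrays of 72 HAF lay above the highest of the 4 arrays of 48 HAF.

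The 5′ probe set showed the same order of times. It read 3.57 and 3.53 in control seeds and 3.64 and 3.62 in drought seeds at 48 HAF, which lies below the median of all probe sets on these arrays (4.08 to 4.11). At 72 HAF it read 4.71 and 5.43 in control seeds and 5.93 and 6.88 in drought seeds, all 4 above their arrays' medians (4.13 to 4.21). Signal over background was not given with the values, so whether the 5′ probe set was detected at 48 HAF is not known, and a fold change from such a low value may be understated. At 24 HAF, control replicate 1 read 10.6, 8.04 and 3.93 for the 3′, middle and 5′ probe sets, against 11.4, 10.4 and 5.66 on control replicate 2, the array that stood apart.

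Between 48 and 72 HAF, over both treatments, the 3′ probe set differed by 0.62 on the log2 scale, or 1.54-fold (95% interval 1.11 to 2.13-fold). The middle probe set differed by 1.87, or 3.65-fold (1.67 to 7.95-fold), and the 5′ probe set by 2.15, or 4.43-fold (2.33 to 8.41-fold). Unadjusted limma p-values were 0.0149, 0.00472 and 0.000591, but after adjustment over all 61290 probe sets none passed the threshold of 0.05 (adjusted p = 0.974 for each). In that comparison limma called 0% of all probe sets, and 2302 had an unadjusted p under 0.05. Of all probe sets, 4.9% had all 4 arrays of 72 HAF above all 4 of 48 HAF, as the 3 sucrose synthase probe sets did, and 7.29% had them all below. The median difference over all probe sets was 0.034, and 3.99%, 0.473% and 0.383% of all probe sets differed upward by as much as the 3′, middle and 5′ ones. This comparison over both treatments was added after the values had been seen.

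Taken by treatment, the differences ran the same way. In control seeds, 72 HAF lay above 48 HAF by 0.54 ± 0.29 (SE, 2 arrays each) for the 3′, 1.46 ± 0.70 for the middle and 1.52 ± 0.57 for the 5′ probe set, and limma's adjusted p was 1 for each. Limma called 0% of probe sets there (188 had an unadjusted p under 0.05), while 15.7% of all probe sets had both later arrays above both earlier ones. In drought seeds, the differences were 0.71 ± 0.29, 2.28 ± 0.70 and 2.77 ± 0.57 (adjusted p = 0.953 for each), with 0% of probe sets called, 2473 at an unadjusted p under 0.05 and 23.3% separated upward. Without drought 72 HAF replicate 2, which stood apart, they were 0.47, 1.70 and 2.30. Fitted on the drought 48 and 72 HAF groups alone, limma called 86 probe sets, none of them a sucrose synthase one (adjusted p = 0.630, 0.246 and 0.111 for the 3′, middle and 5′ probe sets). The spread in this fit is shared by all 5 groups, and the 24 HAF pair is its widest part: the SD of the middle probe set was 1.64 at 24 HAF, against 0.147 and 0.187 for control and drought at 48 HAF and 0.0016 and 0.820 at 72 HAF.

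Over both treatments, the 72 against 48 HAF difference kept its direction without drought 72 HAF replicate 2. It was then 0.50 for the 3′, 1.58 for the middle and 1.91 for the 5′ probe set. The other array that stood apart is of 24 HAF and does not enter this difference. The 13 endosperm storage and starch genes averaged 5.10 on control 72 HAF replicate 1 and 8.58 on replicate 2. On the same arrays the 3′ probe set read 11.2 and 11.2, the middle one 9.43 and 9.43, and the 5′ one 4.71 and 5.43. That list averaged 4.87 to 5.37 on the 4 arrays of 48 HAF, 8.68 and 7.75 on drought 72 HAF replicates 1 and 2, and 5.08 and 7.28 on control 24 HAF replicates 1 and 2. The share of the storage and starch levels in the sucrose synthase difference was not tested beyond these values.

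Drought made little difference to sucrose synthase at 48 HAF in these arrays. Drought and control seeds differed by -0.0097 for the 3′ probe set (95% interval -0.67 to 0.65), by -0.13 for the middle one (-1.72 to 1.46) and by 0.081 for the 5′ one (-1.23 to 1.39), with adjusted p = 1 for each in limma. The drought arrays lay within or across the control values for the 3′ and middle probe sets. For the 5′ probe set both drought arrays lay above both controls, by a gap of 0.055, as did 15.9% of all probe sets. Limma called 0% of probe sets in this comparison, and 82 had an unadjusted p under 0.05. The intervals allow a change of up to 1.57-fold upward for the 3′ probe set and 2.75-fold for the middle one, so they do not show that the treatments were alike.

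At 72 HAF the 5′ and middle probe sets read higher in droughted seeds. The 5′ probe set was at 6.41 ± 0.67 (SD, n = 2) under drought and 5.07 ± 0.51 in controls, a difference of 1.34 or 2.52-fold (95% interval 1.02 to 6.26-fold, unadjusted p = 0.0463, limma adjusted p = 1). The middle probe set was at 10.1 ± 0.82 against 9.43 ± 0.0016, a difference of 0.69 (interval -0.90 to 2.28). The 3′ probe set was at 11.3 ± 0.34 against 11.2 ± 0.016, a difference of 0.16 (-0.50 to 0.82), and its groups overlapped. Both drought arrays lay above both controls for the 5′ and middle probe sets, as they did for 13% of all probe sets, and limma called 0% (254 at an unadjusted p under 0.05).

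Most of the middle probe set's difference at 72 HAF came from 1 array. Without drought 72 HAF replicate 2, one of the arrays that stood apart, the middle probe set differed by 0.11, the 3′ one by -0.075 and the 5′ one by 0.86. Without drought replicate 1 the differences were 1.27, 0.40 and 1.81. The drought difference at 72 HAF exceeded that at 48 HAF by 0.17, 0.82 and 1.25 for the 3′, middle and 5′ probe sets (limma adjusted p = 1 for each, with 0% of probe sets called and 227 at an unadjusted p under 0.05), so a drought effect that changes with time was not shown. Without replicate 2 these values were -0.066, 0.24 and 0.78.

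In watered seeds from 24 to 48 HAF the 3 probe sets had lower means at 48 HAF, by -0.37 for the 3′, -1.23 for the middle and -1.24 for the 5′ one (limma adjusted p = 0.621 for each). These differences rest mostly on control 24 HAF replicate 2. With replicate 1 alone standing for 24 HAF, the differences were 0.0036, -0.073 and -0.38. With replicate 2 alone they were -0.74, -2.39 and -2.10. In that fit limma gave adjusted p-values of 0.00449 and 0.00781 for the middle and 5′ ones and called 25663 of all probe sets, but 24 HAF is then the single array that stood apart, assumed to vary like the other groups. The 5′ probe set was the one with both 48 HAF arrays below both 24 HAF arrays, which held for 15% of all probe sets, and with both arrays kept limma called 0% (908 at an unadjusted p under 0.05).

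By group mean, the 3 probe sets put the groups in nearly the same order. The 48 HAF groups were lowest, at 10.6 and 10.6 for the 3′, 7.97 and 7.84 for the middle and 3.55 and 3.63 for the 5′ probe set (control, then drought). Control 24 HAF followed, between the 48 and 72 HAF groups for each probe set and with the widest spread (9.20 ± 1.64 for the middle and 4.79 ± 1.22 for the 5′ probe set), then control 72 HAF at 11.2, 9.43 and 5.07, and drought 72 HAF was highest. The 3′ and middle values of control and drought at 48 HAF overlapped, as did those of control 24 and control 48 HAF. The control 24 HAF pair spanned the control 72 HAF pair for all 3 probe sets, and at 72 HAF the 3′ values of control and drought overlapped while the middle and 5′ ones did not. Over the 10 arrays the values of the 3 probe sets moved together, with r = 0.980 between 3′ and middle, 0.939 between 3′ and 5′ and 0.953 between middle and 5′ (rho 0.745, 0.782 and 0.855). These are descriptions over 10 arrays that share their groups and their probe-set normalization.

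The span of the values grew from the 3′ to the 5′ end. From the lowest to the highest of the 10 arrays, the 3′ probe set spanned 1.01 on the log2 scale, or 2.02-fold, the middle one 2.99 or 7.93-fold, and the 5′ one 3.35 or 10.2-fold. The median span of all probe sets was 1.31, and 67.6%, 7.18% and 4.59% of probe sets had a wider one. Within an array, the 3′ value minus the 5′ value compares different probes, so only its change between arrays is described. It was 6.99 and 7.18 in control and 7.01 and 6.98 in drought seeds at 48 HAF, 6.48 and 5.73 in control and 5.17 and 4.69 in drought seeds at 72 HAF, and 6.70 and 5.72 on the control 24 HAF arrays. The 4 arrays of 72 HAF thus had smaller 3′ minus 5′ values than the 4 of 48 HAF, with the 2 drought arrays at the lower end.

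The other wheat control transcripts were read as a check of RNA state. Of their 22 probe sets, 18 had a higher mean at 72 than at 48 HAF and 4 a lower one, with a median difference of 0.42 against 0.034 over all probe sets. None passed the adjusted threshold in limma, where no probe set of the array did. An unadjusted limma p under 0.05 was found for 3 of the 22, against 2302 of all 61290 probe sets. In 7 of the 22 all arrays of 72 HAF lay above all of 48 HAF (background 4.9%), among them the 3′ and middle probe sets of CYP86-TA, the middle one of ef1a (elongation factor 1-alpha, which brings aminoacyl-tRNA to the ribosome) and 3 of gapdh (a glycolytic dehydrogenase). The seventh was the 5′ probe set of actin, the subunit of actin filaments. Probe sets that share a transcript are not separate cases, so these counts out of 22 are descriptions. Among the 3 of gapdh, 1 middle probe set read 2.30 to 3.90, below the array medians on all 10 arrays. In 1 of the 22, all arrays of 72 HAF lay below all of 48 HAF (background 7.29%). It was the 3′ probe set of G-6-PDH (glucose-6-phosphate dehydrogenase, the entry enzyme of the pentose phosphate pathway). The 18S ribosomal RNA probe set, also 1 of the 22, read 9.94 and 11.6 in control and 9.99 and 6.12 in drought seeds at 48 HAF, and 8.02 and 11.3 in control and 11.52 and 11.01 in drought seeds at 72 HAF. In drought seeds it was higher at 72 HAF by 3.21 (unadjusted p = 0.0424, limma adjusted p = 0.953), and its drought difference was higher at 72 than at 48 HAF by 4.33 (unadjusted p = 0.0505, limma adjusted p = 1). Its part in the sucrose synthase differences was not tested.

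Ubiquitin, which marks proteins for degradation, varied little from array to array. Its middle probe set lay between 11.6 and 11.8 on all 10 arrays and its 72 against 48 HAF difference was 0.051 ± 0.12 (SE), against 1.87 ± 0.49 for the middle probe set of sucrose synthase. Its 3′ probe set differed by -0.099 ± 0.15 and its 5′ probe set by 0.22 ± 0.12. Differences of CYP86-TA between 48 and 72 HAF were 0.85, 0.91 and 0.78 for its 3′, middle and 5′ probe sets, and those of G-6-PDH were -0.58, -0.24 and 0.22. For the middle and 5′ probe sets of CYP86-TA both drought arrays lay below both controls at 48 HAF and above both at 72 HAF, as they did for 2.87% of all probe sets.

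The 3′ minus 5′ values of these transcripts were set against that of sucrose synthase across the 10 arrays. The 3′ probe sets of gapdh (2.60 to 3.65) and actin (2.91 to 3.63) lay below the array medians on all 10 arrays. So did the 5′ one of ef1a (2.67 to 4.02) and the middle one of gapdh used here (2.30 to 3.90). Whether these probe sets were detected is not known. For these 3 transcripts the values below are given as a description and not as a reading of RNA state. The 5′ probe set of sucrose synthase itself lay below the array medians at 48 HAF (3.53 to 3.64). It did so on control 24 HAF replicate 1 too (3.93, against a median of 4.11). Every 3′ minus 5′ relation below uses it, that of ubiquitin included, so these are descriptions as well. The relations of 3′ minus middle do not use it. For gapdh, Pearson's r was 0.756 and Spearman's rho 0.879 (permutation p = 0.00955 and 0.00137, adjusted over 5 transcripts 0.0477 and 0.0053), and r was 0.891 without the 2 arrays farthest from the median of gapdh. The adjusted p of this r passed 0.05 narrowly. With 1 array left out it missed it in 8 of 10 cases, at up to 0.115, while r itself stayed between 0.732 and 0.805. For ubiquitin r was 0.695 and rho 0.867 (permutation p = 0.0222 and 0.00212, adjusted 0.0554 and 0.0053), with r = 0.845 without the 2 farthest arrays. Its probe sets were bright, with values from 11.1 to 12.7. With control 24 HAF replicate 2 left out its r was 0.786 (adjusted permutation p = 0.0335). With 3′ minus middle in place of 3′ minus 5′, r was 0.809 for ubiquitin (adjusted permutation p = 0.00302) and 0.890 for gapdh (0.0027), and it was 0.135, 0.628 and 0.556 for actin, CYP86-TA and ef1a (0.706, 0.0732 and 0.115). For actin r was 0.470 and rho 0.515 (adjusted permutation p = 0.286 and 0.227), for CYP86-TA 0.250 and 0.261 (0.605 and 0.469) and for ef1a 0.142 and 0.370 (0.693 and 0.371), with r of 0.661, 0.516 and 0.777 without the 2 farthest arrays. The values of G-6-PDH fell into separate sets, 1.95 to 2.26 on 3 arrays of 72 HAF and 2.81 to 3.27 on the other 7, so no pooled r is given. Within the 7, r was 0.663 and rho 0.821 (exact permutation p = 0.0770 and 0.0341, not adjusted).

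The time groups lie at different places along these relations, and with 4 arrays at 48 and 4 at 72 HAF no relation was computed within a time. The permutations exchanged arrays across times. Their p-values therefore do not tell a shared difference between times from a relation between single arrays. From 48 to 72 HAF the mean 3′ minus 5′ value went from 7.04 to 5.52 for sucrose synthase. It also went down for gapdh (-2.46 to -3.42), G-6-PDH (3.10 to 2.30), actin (-1.68 to -2.27), ef1a (0.83 to 0.49) and ubiquitin (-0.82 to -1.13), and it went from 1.67 to 1.74 for CYP86-TA. The sizes of these differences were not tested against each other. How much of the sucrose synthase difference between times goes with the state of the RNA was not tested. The difference in the 3′ probe set, the one nearest the priming site, was 0.62 as deposited. It was 0.55 when each array was centred on the 3′ probe sets of the other 6 transcripts, the dim ones of gapdh and actin included. That of ef1a, also included, lay below the array medians at 48 HAF (3.53 to 4.02). Centring subtracts 1 value from a whole array, so it leaves the 3′ minus 5′ values as they were.

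Among the genes with a symbol on this array, 5 matched a list of sucrose, fructan and starch metabolism, a list drawn up with earlier results of these arrays known. They were AGP-S (LOC543299), the small subunit of the enzyme that makes ADP-glucose for starch, the granule-bound starch synthase GBSS or waxy (LOC543395), which makes amylose, the invertase-named IVR1 (LOC543415), and the fructan exohydrolases 1-FEH (LOC543441) and 6-FEH (LOC780575), which release fructose from fructans. None of the 5 passed limma's threshold in any of the 7 comparisons, and neither did any other of the 61290 probe sets. From 48 to 72 HAF over both treatments, 2 of the 5 had a higher and 3 a lower mean, with a median difference of -0.00011 on the log2 scale. Under drought 1 was higher and 4 lower at 48 HAF (median -0.16), and 2 were higher and 3 lower at 72 HAF (median -0.061).

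GBSS read 10.6 to 10.8 at 48 HAF and 10.7 to 10.8 at 72 HAF. AGP-S read 10.1 to 10.3 on the 4 arrays of 48 HAF and split at 72 HAF, with 9.58 and 11.3 on control replicates 1 and 2 and 11.2 and 9.60 on drought replicates 1 and 2. For sucrose synthase all 4 arrays of 72 HAF lay above those of 48 HAF, though replicates also parted there. In drought seeds the middle probe set read 9.54 and 10.7 and the 5′ one 5.93 and 6.88. In control seeds the middle one read 9.43 and 9.43 and the 5′ one 4.71 and 5.43. The 6-FEH gene was lower by 1.21 on average at 72 HAF, with 9.10 and 7.26 in control and 7.30 and 7.31 in drought seeds against 8.35 to 9.62 at 48 HAF (limma adjusted p = 0.974). Its 2 dimmer probe sets differed by -0.60 and 0.29 and so disagreed in direction. The 1-FEH gene read 7.70 to 8.50 at 72 and 8.04 to 8.78 at 48 HAF.

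IVR1 read 2.34 to 3.15 on the 8 arrays of 48 and 72 HAF, below the array medians. Its highest value, 4.63, was on control 24 HAF replicate 2, where 6-FEH and 1-FEH had their lowest values (3.80 and 5.76). On that array AGP-S also read its lowest value (8.38), while the 3′ and middle probe sets of sucrose synthase read their second highest values of the 10 arrays.

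The probe sets whose pattern was most like that of sucrose synthase were found by Pearson's r with the mean of its 3 probe sets over the 10 arrays, among the 511 probe sets with a gene symbol and an SD of at least 0.5. The top 3 belonged to 2 genes, LOC780581 (r = 0.980) and LOC543463 with both of its probe sets (r = 0.978 and 0.976), for which the annotation gives no name beyond the number. LOC780581 read 4.53 to 4.69 at 48 HAF and 5.27 to 6.23 at 72 HAF, and the first LOC543463 probe set read 9.69 to 9.73 and 10.4 to 10.9. The 3 most opposite were LOC543393 (r = -0.931), LOC778385 (-0.926) and LOC542797 (-0.925). LOC543393 read 7.07 to 7.45 at 48 HAF and 5.38 to 6.91 at 72 HAF. Of all 21078 probe sets with that SD, 314 or 1.49% had an r of at least 0.9. With 10 arrays in 5 groups, such values describe a shared profile over times and arrays.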

How the data were processed

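RNA of whole seeds was hybridised to Affymetrix wheat arrays, 1 per sample. The authors deposited log2 values from RMA, per the submitters' processing notes, which list affy and RMA. Versions and settings are not stated there. The values were used as they stood, on 10 arrays with medians of 4.08 to 4.24. Groups came from the sample titles.

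All 61290 probe sets, including the 111 Affymetrix controls to which the members belong, were fitted in limma 3.58.1 (R 4.3.3) with a mean for each group, variances moderated along an intensity trend and 5 residual degrees of freedom. P-values were adjusted by Benjamini-Hochberg within each of 7 contrasts at a threshold of 0.05. The step was tested on simulated data. With 2 arrays a group, their number limits the precision. Correlations used 100000 permutations, and 10000 where 1 array was left out. A transcript's arrays counted as separate sets when the widest gap exceeded one part in 3 of the range with at least 2 arrays on each side, a rule set after seeing the values. Symbols were given for 1273 probe sets, and 770 of their 771 genes matched the reference table. The members, lists, comparisons and rule for named genes (the 3 annotated probe sets most like and most opposite, the control transcripts and the sucrose list, each gene by its brightest probe set) were chosen with earlier results of these data known. Alternatives were the arrays or groups fitted, the probe sets fitted, the trend, the replicate block and centring.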

Additional observations from a re-analysis of the deposited data

Results flagged for a closer look

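The middle and 5′ probe sets of CYP86-TA, a control transcript read beside sucrose synthase, were set apart because both drought arrays lay below both controls at 48 HAF and above both at 72 HAF. Of all probe sets, 15.4% had both drought arrays below both controls at 48 HAF, 13% had them above at 72 HAF and 2.87% had both patterns. The drought difference at 72 HAF exceeded that at 48 HAF by 0.908 on the log2 scale for the middle probe set and by 1.10 for the 5′ one, and limma's test of this difference gave an adjusted p of 1 for each. For the 5′ probe set the control mean was 6.18 ± 0.14 (SD, n = 2) at 48 HAF and 6.40 ± 0.19 at 72 HAF, and the drought mean was 5.88 ± 0.26 and 7.21 ± 0.48. Drought 72 HAF replicate 2, an array that stood apart, gave the higher values there (7.55 for the 5′ and 7.93 for the middle probe set, against 6.87 and 7.09 on replicate 1).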

How the results depend on the processing

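Among the sucrose synthase differences under other settings, 344 values kept their direction and, where tested, their side of the threshold. Of the others, 12 changed sign, and 2 came from the fit with control 24 HAF replicate 2 alone, described above. The last 6 moved by more than 1 SD and came from the mean of the 3 probe sets, which was not tested. That SD was of the 3′ probe set in 1 group of the comparison, from 2 arrays. Many of the values that kept their direction could not have changed it. The groups or probe sets fitted, the trend and the replicate block alter only the error in this balanced design. Leaving out an array that is not in a comparison also keeps its difference as it was. For the 3′ probe set, drought against control at 48 HAF became 0.0018 with arrays centred on their medians. With arrays centred on the other 3′ control probe sets it became 0.072, and the drought difference between times became -0.00039. Leaving out 1 array at a time gave, for the 3′ probe set, -0.085 to 0.066 for drought at 48 HAF, -0.075 to 0.40 for drought at 72 HAF, -0.066 to 0.41 for their difference and -0.74 to 0.0036 for control 48 against 24 HAF, and for the middle probe set -0.26 to 0.00086 for drought at 48 HAF. Without both arrays that stood apart, a setting chosen after seeing the data, these 3′ values were -0.075 at 72 HAF, -0.066 for the difference and 0.0036 for 48 against 24 HAF. The mean of the 3 probe sets in place of the 3′ one gave 0.73 for drought at 72 HAF, 0.75 for the difference between times, -0.95 for control 48 against 24 HAF, and 1.17, 1.92 and 1.54 for 72 against 48 HAF in control, drought and both. For 72 against 48 HAF over both treatments, leaving out arrays gave 0.50 to 0.74, 1.58 to 2.16 and 1.91 to 2.38 for the 3′, middle and 5′ probe sets, and the adjusted p over all settings ran from 0.296 to 1. Replicate differences correlated between groups at -0.519 to 0.588, with no common sign, so replicate numbers were not taken as pairs. The highest r was between control 24 and drought 72 HAF, whose replicate 2 arrays both stood apart. The replicate block cannot change a difference in this balanced design. With it the 3′ difference was 0.62 (limma adjusted p = 0.993), and no probe set was called. Limma called 86 probe sets for drought 72 against 48 HAF with these groups alone and at most 2 in any comparison when 1 array other than control 24 HAF replicate 1 was left out. The r of ef1a ran from -0.115 to 0.858 when 1 array was left out. With drought 72 HAF replicate 2 left out, the adjusted p of ef1a was 0.0175, and the cause was not tested. Signal over background was not measured, which limits what the low 5′ values at 48 HAF can show.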
